A study of Arabidopsis thaliana with 24 samples.

Results

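The 150 transcripts described here were the nuclear mRNAs with the lowest polysome loading in dark-grown control seedlings. Polysome loading is the log2 signal in polysome-bound RNA minus the log2 signal in total RNA, each first taken relative to the median of its own array. A probe set could enter if it was paired with 1 nuclear gene and its mean over the 12 arrays of total RNA was 8 or more on the deposited log2 scale. Of 22746 probe sets other than array controls, 13367 were paired with 1 nuclear gene and 4782 of these met the limit on signal. The 150 lowest came from 150 different genes, 22 of which have a gene symbol in the reference used here, while the others are known by their locus code alone.

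The arrays were Affymetrix ATH1 arrays of Arabidopsis thaliana, hybridised with RNA from the aerial parts of etiolated seedlings aged 4 d, which are seedlings grown without light. There were 8 groups of 3 biological replicates, formed by 2 genotypes, 2 light conditions and 2 RNA fractions. The groups were dcp5-1 seedlings given 4 h of white light, dcp5-1 seedlings kept dark, control Col-0 seedlings given the same light, and control Col-0 seedlings kept dark, each as polysome-bound and as total RNA. The dcp5-1 mutant is affected in DCP5, for which no probe set is named here, and its level was therefore not used to check the genotypes. Each light group had the same dark growth before its light.

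A polysome is an mRNA that carries several ribosomes, so the share of a transcript found there is read as a measure of how much of it is being translated. Processing bodies are cytoplasmic granules of untranslated mRNA and decapping proteins. DCP5 is a component of them. When an etiolated seedling first meets light it opens its cotyledons and builds chloroplasts, and many stored or newly made mRNAs are recruited to ribosomes.

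On the deposited scale the array medians were 7.33 to 7.44 in total RNA and 4.40 to 6.75 in polysomal RNA. The median polysomal array lay below its total-RNA partner by a log2 difference of -0.96 ± 0.28 in light dcp5-1, -1.33 ± 0.25 in dark dcp5-1, -0.97 ± 0.21 in light control and -2.22 ± 0.63 in dark control (SD, n = 3 pairs). Centring removes this array-wide shift, so every loading below is relative to a typical probe set and not an absolute share of molecules on ribosomes. Of the 7 markers listed for aerial tissue, 2 had a named probe set, RCA and PORB, and both lay 3.76 to 7.39 above the array median in every total-RNA array. The root and seed markers had none. These are bulk samples, in which fewer cells of a type and less RNA per cell cannot be told apart.

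In the dark control arrays, which chose the members, loading of the 150 had a median of -1.13 and ran from -2.25 to -0.88. The last 2 members were AT5G09880 at -0.887 and AT5G24170 at -0.884, and the next 2 genes outside were AT1G09280 at -0.882 and AT4G18230 at -0.880. The edge of the set is therefore a point on a continuous scale. Members were also chosen again by ranking the same 4782 eligible genes on 2 of the 3 dark control replicates. Their median loading in the replicate left out was -0.87, -1.14 and -1.23 (replicates 1, 2 and 3), with 149, 150 and 149 of them below 0. The total-RNA array left out of the ranking still counted towards the limit on signal. The loadings in the replicate left out are therefore not independent of the choice, although every eligible gene met the same limit. Among all 4782 eligible genes the medians in those replicates were 0.04, 0.06 and 0.06, with 45.7% to 46.4% of genes below 0. Those choices shared 130, 121 and 129 genes with the 150. The values left out therefore describe the genes chosen again, in the contrast that the rule used, and are no test of the 150.

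Low loading was also measured in the other conditions, none of which shares an array with the ranking in dark control. Their total-RNA arrays did count towards the limit on signal. A high total signal there helps a gene to meet the limit and also lowers its loading. The other 4632 eligible genes met the same limit. In light dcp5-1 the median loading of the members was -0.93, against 0.07 in the other 4632 eligible genes. In dark dcp5-1 it was -1.03, against 0.04. In light control it was -0.98, against 0.07. In each of these conditions 149 of the 150 members lay below 0. The median over members within each replicate pair averaged -0.95 ± 0.11 in light dcp5-1, -1.05 ± 0.13 in dark dcp5-1, -0.96 ± 0.29 in light control and -1.16 ± 0.20 in dark control (SD, n = 3). The 4 conditions overlapped in these values. The 150 best loaded eligible genes, chosen in the same way from the other end, averaged 1.06, 1.07, 1.11 and 1.16 in that order.

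**Figure D1:**
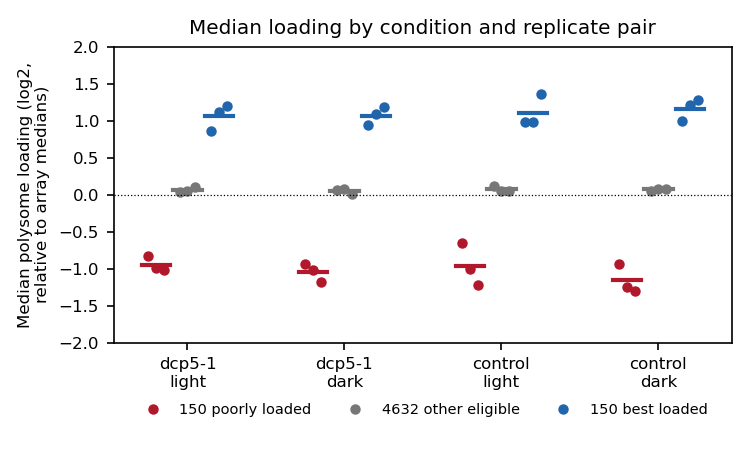
Median polysome loading (log2, relative to array medians) over the 150 poorly loaded, the 4632 other eligible and the 150 best loaded genes; each point is 1 replicate pair and each bar the mean of 3 pairs. The poorly loaded genes averaged -0.95, -1.05, -0.96 and -1.16 from left to right, and the control dark values are those that chose the poorly and best loaded genes.

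Gene by gene, most members passed the test of lower polysomal than total level. In light dcp5-1, 93 of the 150 passed (limma, Benjamini-Hochberg adjusted over 17059 probe sets at 0.05), where 4.88% of all probe sets tested and 6.96% of eligible genes were called lower. In dark dcp5-1, 117 passed, against 5.63% of all probe sets and 7.99% of eligible genes. In light control, 100 passed, against 5.09% and 7.3%. By limma 0 of the 150 were called higher in any of these conditions, where all probe sets had 7.81%, 8.04% and 8.9% called higher in light dcp5-1, dark dcp5-1 and light control, and 0 members in light dcp5-1, 1 in dark dcp5-1 and 0 in light control were higher at an unadjusted p under 0.05. The polysomal and total arrays did not overlap, with polysomal lower, for 124, 135 and 120 members in light dcp5-1, dark dcp5-1 and light control, where the share of all probe sets was 13.9%, 14% and 10.7%. These counts changed with the replicates used. Without replicate 2 the called members numbered 37, 54 and 51 in that order, without replicate 3 29, 28 and 6, and without polysomal array 3 of light control alone that condition had 65. Over all probe sets, the calls in light control without replicate 3 numbered 33.

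The same genes tended to pass in each condition. Of the 150, 77 were called lower in all 3 conditions, 25 in 2, 29 in 1 and 19 in none. Among the 4632 other eligible genes these numbers were 79, 122, 273 and 4158. When the eligible genes were ranked afresh in each condition, the 150 lowest held 76 of the members in light dcp5-1, 94 in dark dcp5-1 and 85 in light control, or 50.7%, 62.7% and 56.7% of them, while 150 is 3.14% of the eligible genes. The lowest 10% of eligible genes held 121, 134 and 127 members. There were 58 members among the lowest 150 in all 3 conditions and 34 in none of them. Across the 4782 eligible genes, loading in dark control correlated with that in light dcp5-1 at r = 0.859, in dark dcp5-1 at 0.893 and in light control at 0.871, and within the 150 members the values were 0.589, 0.538 and 0.616. Genes are not independent replicates, and the points of each pair share the probe sets and the replicate numbers.

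**Figure D2:**
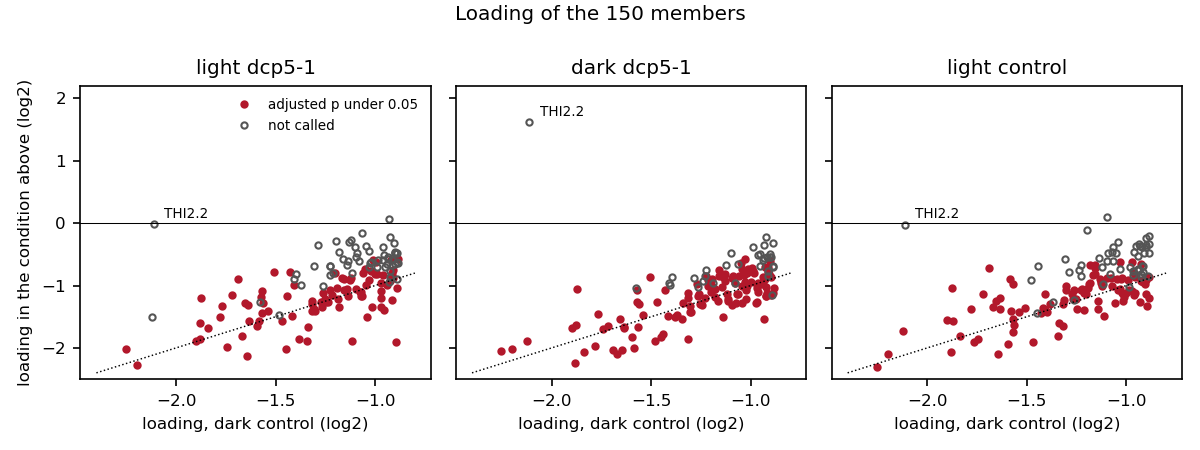
Loading of each of the 150 members (log2) in light dcp5-1, dark dcp5-1 and light control against its loading in dark control, which chose it; the dotted line marks equal values. Filled points passed at an adjusted p under 0.05 (93, 117 and 100 members), and all but 1 member per panel lie below 0, with THI2.2 at 1.62 in dark dcp5-1.

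The members with a known product are taken below by the role of that product, with a few genes for each role, which does not measure how common a role is in the set. Those with a symbol were chosen for it after their values were seen, although the rule for named genes given below also took some of them. AT3G52060 was likewise added afterwards, for a synonym in the reference that names the product. AT5G66390, which also has such a synonym, was taken by the rule. Values for each are the loading on the log2 scale with its standard error.

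DI19 (AT1G56280), a drought-induced zinc finger protein, was poorly loaded in every condition. Its level relative to the array median was 3.57, 3.46 and 3.60 in polysomal RNA of light dcp5-1, against 5.52, 5.06 and 5.07 in total RNA. In dark dcp5-1 it was 3.73, 3.60 and 3.56 in polysomal RNA, against 6.09, 5.54 and 5.45 in total RNA. In light control it was 4.00, 3.64 and 3.25 in polysomal RNA, against 5.58, 5.33 and 5.38 in total RNA. All polysomal arrays lay below all total arrays in each condition, and the polysomal values of dcp5-1 stayed between 3.46 and 3.73. Loading was -1.68 ± 0.26 in light dcp5-1 (limma adjusted p = 3.0e-04), -2.06 ± 0.26 in dark dcp5-1 (4.6e-05) and -1.80 ± 0.26 in light control (1.4e-04). In dark dcp5-1 this is 4.18-fold lower than a typical transcript.

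ATU2AF65A (AT4G36690) encodes the large subunit of the U2 auxiliary factor, which recognises the 3' end of introns in pre-mRNA splicing. In light dcp5-1 its level was 1.25, -0.33 and -0.62 in polysomal RNA, against 2.28, 1.89 and 2.08 in total RNA. Dark dcp5-1 had 1.92, -0.11 and 0.41 in polysomal RNA, against 2.72, 2.01 and 2.56 in total RNA. Polysomal replicate 1 was the highest of its group in both, and the fractions did not overlap. Loading was -1.99 ± 0.47 in light dcp5-1 (limma adjusted p = 0.0070), -1.69 ± 0.47 in dark dcp5-1 (0.018) and -1.86 ± 0.47 in light control (0.0099). The dark dcp5-1 call ended without polysomal array 2 or 3 or total array 1 or 3 (highest adjusted p = 0.11). AME3 (AT4G32660), a LAMMER-type protein kinase, a class that phosphorylates splicing factors, had loadings of -1.24 ± 0.22 in light dcp5-1 (limma adjusted p = 0.0011) and -0.93 ± 0.22 in light control (0.0073). The light control call ended without polysomal array 3 (0.065), and in dark dcp5-1 the value was -0.54 ± 0.22, with an adjusted p of 0.12 that was 0.029 with the replicate number as a block.

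Of the members that act on ribosomes, DIM1A (AT2G47420), a dimethyltransferase that modifies ribosomal RNA, had a loading of -0.73 ± 0.21 in dark dcp5-1 (limma adjusted p = 0.024), a call that ended without total array 2 or 3 or polysomal array 1 or 3 (highest 0.10). Its values of -0.37 in light dcp5-1 and -0.30 in light control did not pass. PEL1 (AT4G27650), a Pelota protein that helps release stalled ribosomes, had loadings of -0.54 ± 0.30, -0.58 ± 0.30 and -0.74 ± 0.30 in light dcp5-1, dark dcp5-1 and light control (limma adjusted p = 0.25, 0.20 and 0.10). With the replicate block the adjusted p was 0.044 in dark dcp5-1 and 0.011 in light control.

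Among the transcription factors, SMZ (AT3G54990), an AP2-type repressor of flowering, joined low loading to a large light response. Its level in light dcp5-1 was 1.96, 1.48 and 1.51 in polysomal RNA, against 3.54, 3.59 and 3.46 in total RNA. The levels in dark dcp5-1 were 0.41, 0.32 and -0.01 in polysomal RNA, against 1.60, 1.3 and 1.56 in total RNA. Every light array lay above every dark array of its fraction, and every polysomal array lay below every total array of its condition. Loading was -1.88 ± 0.26 in light dcp5-1 (limma adjusted p = 1.3e-04), -1.24 ± 0.26 in dark dcp5-1 (0.0027) and -1.49 ± 0.26 in light control (6.5e-04). Light raised SMZ in dcp5-1 by 2.05 ± 0.26 in total RNA (2.7e-06) and by 1.41 ± 0.26 in polysomal RNA (3.0e-04). B70 (AT4G21340), a basic helix-loop-helix protein, had loadings of -1.35, -1.17 and -1.22 in light dcp5-1, dark dcp5-1 and light control (limma adjusted p = 0.0036, 0.0088 and 0.0064). The B70 call in dark dcp5-1 ended without total array 3 (0.064), and that in light control without polysomal or total array 3 (highest 0.055).

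Sugar transport and sugar transfer were represented by SWEET2 (AT3G14770) and SWEET17 (AT4G15920), sugar carriers of the vacuolar membrane, SFP1 (AT5G27350), a monosaccharide transporter-like protein, and the glycosyltransferases GT72B1 (AT4G01070) and UGT73B1 (AT4G34138). SWEET2 had 2.48, 2.01 and 2.37 in polysomal RNA of light dcp5-1, against 3.84, 3.08 and 3.58 in total RNA, as levels relative to the array median. In the dark, dcp5-1 had 1.28, 1.06 and 1.24 in polysomal RNA, against 2.67, 2.43 and 2.36 in total RNA. The fractions did not overlap and both were higher in light. SWEET2 loading was -1.22 ± 0.25 in light dcp5-1, -1.29 ± 0.25 in dark dcp5-1 and -1.22 ± 0.25 in light control (limma adjusted p = 0.0030, 0.0018 and 0.0026). Light raised SWEET2 in dcp5-1 by 1.02 ± 0.25 in total RNA (0.0050) and by 1.09 ± 0.25 in polysomal RNA (0.0028).

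GT72B1, which adds glucose to phenolic compounds, had loadings of -1.12, -1.14 and -1.07 in light dcp5-1, dark dcp5-1 and light control, each ± 0.18 (limma adjusted p = 4.8e-04, 3.6e-04 and 5.6e-04). UGT73B1, a flavonoid glucosyltransferase, had -1.51, -1.27 and -1.07, each ± 0.34 (0.0050, 0.014 and 0.037). The UGT73B1 call in dark dcp5-1 ended without polysomal array 2 or 3 or total array 1 (highest adjusted p = 0.070), and that in light control without polysomal array 2 or 3 or total array 1 or 3 (highest 0.14). SFP1 had -0.83, -1.10 and -1.16, each ± 0.26 (0.037, 0.0065 and 0.0043), and its light dcp5-1 call ended without any single one of the 6 arrays of that condition (highest 0.13).

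SWEET17, a fructose carrier, was a member with weak loading values elsewhere, at -0.57 ± 0.34, -0.56 ± 0.34 and -0.34 ± 0.34 in light dcp5-1, dark dcp5-1 and light control (limma adjusted p = 0.29, 0.29 and 0.55). Its total level was 3.23, 3.95 and 3.42 in light dcp5-1, against 1.09, 1.71 and 0.99 in dark dcp5-1. Its polysomal level was 2.56, 3.67 and 2.68 in light dcp5-1, against 0.85, 1.10 and 0.15 in dark dcp5-1. Light arrays lay above dark arrays in both fractions, by 2.27 ± 0.34 in total RNA (limma adjusted p = 2.1e-05) and 2.26 ± 0.34 in polysomal RNA (2.3e-05). SWEET17 lies next to another member, DI21 (AT4G15910), a drought-induced gene, in the reference gene order. DI21 had loadings of -1.17 ± 0.29 in light dcp5-1 (0.0093), -1.78 ± 0.29 in dark dcp5-1 (3.6e-04) and -0.69 ± 0.29 in light control (0.11, and 0.036 with the replicate block). The DI21 call in light dcp5-1 ended without total array 2 (0.059). DI21 met the limit on signal in its dark total-RNA arrays alone (mean 8.322, against 7.91 in light). A high total signal in the dark also lowers loading there, so the dark dcp5-1 call of DI21 is not independent of that limit.

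Members with a role in the cell wall were EXPB1 (AT2G20750), a beta-expansin that loosens walls, GH9C2 (AT1G64390), an endoglucanase-type glycosyl hydrolase, and AT5G66390, a class III peroxidase (PEROXIDASE 72). The cell wall list, drawn by words in the gene symbols and synonyms, had 22 eligible genes, of which 2 were members, EXPB1 and GH9C2. That is 9.09% of the list, beside 3.14% of all eligible genes, and it was the only list drawn up that held a member. It was also the list with the most eligible genes. The share rests on 2 genes, and the words missed members such as SWEET2 and ATU2AF65A, so no theme was read from it. The list's median loading was -0.132 in light dcp5-1, -0.241 in dark dcp5-1 and -0.408 in light control. EXPB1 had loadings of -0.80 ± 0.30 in light dcp5-1 (limma adjusted p = 0.078, and 0.0043 with the replicate block), -1.01 ± 0.30 in dark dcp5-1 (0.026) and -1.12 ± 0.30 in light control (0.013). Its dark dcp5-1 call ended without total array 1 or 3 or polysomal array 1 or 2 (highest 0.14), and its light control call without total array 3 (0.11). EXPB1 levels in total RNA were 0.09, 0.03 and 0.44 in light dcp5-1, against 1.72, 1.4 and 2.25 in dark dcp5-1, with no overlap. Light minus dark was -1.6 in total RNA and -1.39 in polysomal RNA, given without a test because EXPB1 met the limit on signal in its dark arrays alone. A high total signal in the dark also lowers loading there, so the dark dcp5-1 call of EXPB1 is not independent of that limit. AT2G20740, the neighbour of EXPB1, is also a member and had loadings of -1.29, -1.29 and -1.64 in light dcp5-1, dark dcp5-1 and light control.

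GH9C2 had loadings of -0.92, -0.84 and -1.05 in light dcp5-1, dark dcp5-1 and light control, each ± 0.25 (limma adjusted p = 0.017, 0.027 and 0.0067). Its dark dcp5-1 call ended without any of total arrays 1 and 3 and polysomal arrays 1, 2 and 3 (highest 0.15), and its light dcp5-1 call without total array 3 or polysomal array 1 or 2 (highest 0.077). AT5G66390 had -0.68, -0.76 and -1.06, each ± 0.26 (0.084, 0.055 and 0.0085). With the replicate block its values in dcp5-1 passed as well (0.0010 in light and 3.9e-04 in dark).

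The secretory pathway had SEC22 (AT1G11890), a SNARE protein of transport between the endoplasmic reticulum and the Golgi, GPT (AT2G41490), the enzyme that starts the dolichol-linked sugar of protein N-glycosylation, and AT3G52060, listed as an N-acetylglucosaminyl transferase-like protein. AT3G52060 had loadings of -1.20 ± 0.18 in light dcp5-1 (limma adjusted p = 2.9e-04), -1.27 ± 0.18 in dark dcp5-1 (1.4e-04) and -1.09 ± 0.18 in light control (4.7e-04). SEC22 had -0.44 ± 0.19 in light dcp5-1 (0.13), -0.58 ± 0.19 in dark dcp5-1 (0.043) and -0.62 ± 0.19 in light control (0.030). Its dark dcp5-1 call ended without any single one of the 6 arrays (highest 0.11), and its light control call without polysomal or total array 2 or 3 (highest 0.24). GPT did not pass in any of the 3, with 0.06, -0.35 and -0.36 in that order, and its light dcp5-1 value was -0.90 on the deposited scale, where the array-wide shift remains.

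Among organelle and metabolic members, NCLPP7 (AT5G23140), a proteolytic subunit of the Clp protease, had levels of 1.49, 1.76 and 1.50 in polysomal RNA of light dcp5-1, against 2.23, 2.37 and 2.46 in total RNA. In dark dcp5-1 it had 1.36, 1.50 and 1.34 in polysomal RNA, against 2.60, 2.68 and 2.56 in total RNA. These arrays were tightly grouped, and the fractions did not overlap. NCLPP7 loading was -0.76 ± 0.14 in light dcp5-1 (limma adjusted p = 0.0014), -1.22 ± 0.14 in dark dcp5-1 (4.2e-05) and -0.87 ± 0.14 in light control (3.9e-04). SDRB (AT3G12800), a peroxisomal short-chain dehydrogenase-reductase, had -1.39 ± 0.21 in light dcp5-1 (2.5e-04), -0.97 ± 0.21 in dark dcp5-1 (0.0035) and -1.12 ± 0.21 in light control (0.0010). GLX2-5 (AT2G31350), a mitochondrial glyoxalase II, had -0.38 ± 0.25, -0.96 ± 0.25 and -0.46 ± 0.25 in light dcp5-1, dark dcp5-1 and light control (0.35, 0.013 and 0.24). The GLX2-5 call in dark dcp5-1 ended without polysomal array 3 or total array 2 (highest 0.099), and its light control value passed with the replicate block (0.032). FEY (AT4G27760), an oxidoreductase-like protein needed for normal shoot meristem development, had -1.10 ± 0.32, -1.67 ± 0.32 and -0.98 ± 0.32 (0.028, 0.0017 and 0.045). The light dcp5-1 call of FEY ended without total array 1 or 2 or polysomal array 1, 2 or 3 (highest 0.11), and its light control call without total array 1 or 3 or polysomal array 2 or 3 (highest 0.20). FEY met the limit on signal in its light total-RNA arrays alone (mean 8.144, against 7.885 in the dark). A high total signal in light also lowers loading there, so the 2 light calls of FEY are not independent of that limit.

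**Figure D3:**
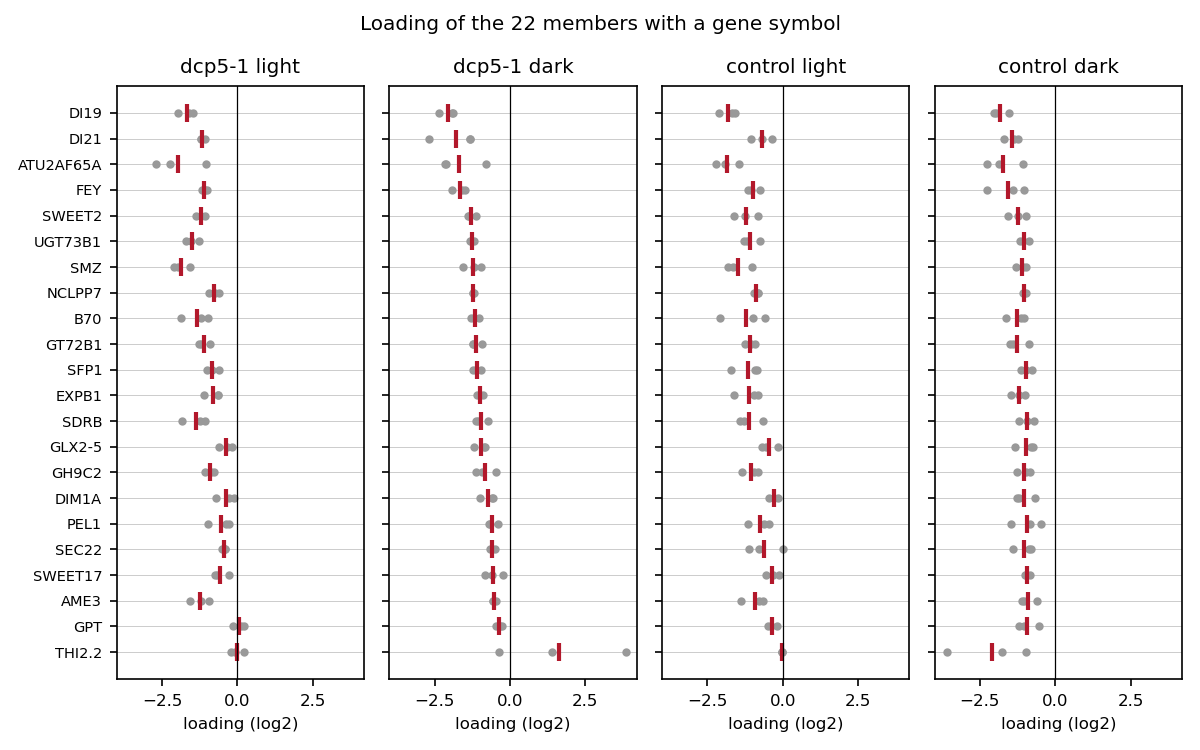
Polysome loading (log2) of the 22 members with a gene symbol in light and dark dcp5-1 and in light and dark control; grey points are the 3 replicate pairs and red bars their mean. DI19 was at -1.68, -2.06 and -1.80 in light dcp5-1, dark dcp5-1 and light control, and THI2.2 at -0.02, 1.62 and -0.02, while the dark control panel shows the values that chose the genes.

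Among the members without a symbol, the lowest loading in dark control was that of AT5G13030, at -2.25. In light dcp5-1 its level was -1.32, -1.22 and -1.43 in polysomal RNA, against 0.62, 0.51 and 0.93 in total RNA. Dark dcp5-1 had -1.49, -1.31 and -1.03 in polysomal RNA, against 1.07, 0.05 and 1.17 in total RNA. In light control it was -1.39, -1.07 and -2.0 in polysomal RNA, against 1.24, 0.30 and 0.93 in total RNA. Polysomal arrays were below the array median and total arrays above it throughout. Loading was -2.01 ± 0.29, -2.04 ± 0.29 and -2.31 ± 0.29 in light dcp5-1, dark dcp5-1 and light control (limma adjusted p = 1.6e-04, 1.1e-04 and 4.5e-05). The lowest values in the 3 conditions were those of AT2G25590 in light dcp5-1 at -2.27, AT1G66760 in dark dcp5-1 at -2.24 and AT5G13030 in light control. AT5G47435 had -1.57, -2.0 and -0.89, each ± 0.20 (6.6e-05, 3.5e-06 and 0.0038).

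Other members had a loading near 0 in light control. AT1G10660 had levels of 2.11, 2.17 and 1.81 in polysomal RNA of light control, against 1.94, 1.91 and 1.95 in total RNA, so the fractions overlapped. In light dcp5-1 it had 1.41, 1.12 and 1.03 in polysomal RNA, against 1.77, 1.73 and 1.67 in total RNA, and in dark dcp5-1 1.17, 0.93 and 0.62, against 2.38, 1.96 and 2.29. Its loading was -0.54 ± 0.19 in light dcp5-1 (limma adjusted p = 0.069, and 0.014 with the replicate block), -1.30 ± 0.19 in dark dcp5-1 (1.9e-04) and 0.10 ± 0.19 in light control (0.80, and a value of -0.87 on the deposited scale). AT3G62190 had -0.29, -0.89 and -0.12, each ± 0.18, in the same order (0.30, 0.0021 and 0.73).

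THI2.2 (AT5G36910), a thionin, which is a small cysteine-rich defence protein, was the exception in dark dcp5-1. Its level there was -0.76, -2.77 and -2.30 in polysomal RNA, against -4.61, -4.14 and -1.94 in total RNA. In dark control it was -2.60, -5.28 and -4.52 in polysomal RNA, against -1.62, -1.68 and -2.76 in total RNA. All of these values lie below the array median, and the fractions overlapped in dark dcp5-1. In light the gene was abundant, with 4.22, 3.65 and 4.06 in polysomal RNA of light dcp5-1, against 4.00, 3.72 and 4.26 in total RNA. It thus met the limit on signal through its light arrays. Its loading was 1.62 ± 0.60 in dark dcp5-1 (limma adjusted p = 0.076, and 0.036 with the replicate block), and -0.02 ± 0.60 in both light dcp5-1 and light control (0.99 and 0.99). Light minus dark in dcp5-1 was 7.55 in total RNA and 5.91 in polysomal RNA, given without a test because the high light values admitted the gene.

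**Figure D4:**
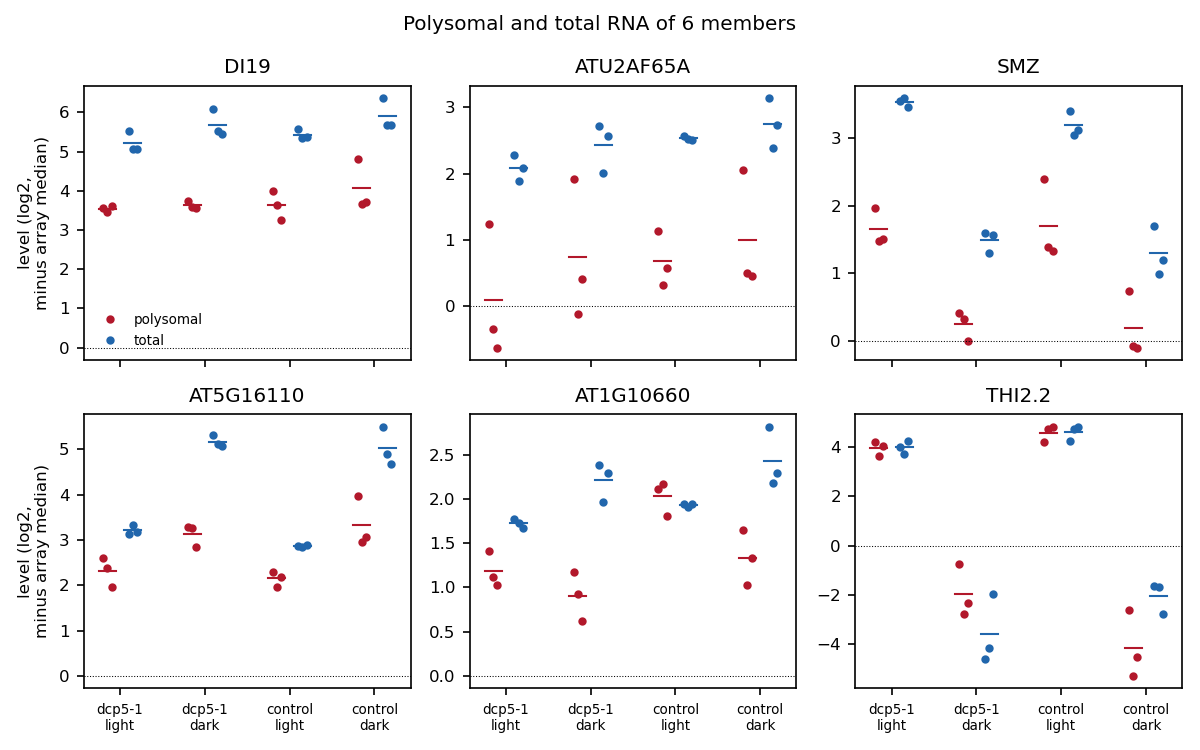
Levels of 6 members (log2 minus the array median) in polysomal and total RNA of the 4 conditions, 1 point per array with a bar at the mean of 3. Polysomal RNA of DI19, ATU2AF65A and SMZ lay below total RNA in every condition, AT1G10660 overlapped in light control, and THI2.2 lay below the array median in the dark.

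Whether light changed the loading of the members was tested in dcp5-1, whose arrays did not rank them. The total-RNA arrays of dcp5-1 did count towards the limit on signal. That limit was met in the dark alone by 14 members and in light alone by 7. A change in total RNA that the limit favoured also enters the light change of loading. The median change was 0.08, against -0.0009 in the other eligible genes, and 98 of 150 members lay above 0. By limma 0 members were called in either direction, as were 0 of all probe sets, with 5 higher and 1 lower at an unadjusted p under 0.05. The light pairs lay above the dark pairs without overlap for 22 members and below them for 3, where the shares over all probe sets were 6.31% and 5.26%. The standard error of such a change had a median of 0.36 over the members. In control seedlings the light change of loading had a median of 0.15, with 110 members above 0. This is a description only, because the dark control arrays chose the members for low values.

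The genotypes were compared for loading in light. The median of dcp5-1 minus control was 0.01, with 80 members above 0 and 70 below. By limma 0 members were called, as were 0 of all probe sets, with 3 lower and 1 higher at an unadjusted p under 0.05. There were 8 members lower and 8 higher without overlap, where all probe sets had 4.76% and 4.57%. In the dark, where the control arrays chose the members, the median difference was 0.12, with 96 above 0.

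Light changed the amount of some members in dcp5-1. In total RNA 23 were lower in light and 13 higher (limma, adjusted p under 0.05), or 15.3% and 8.67% of the 150, where all probe sets had 11.1% and 10.8% and eligible genes 15% and 12%. In polysomal RNA 17 were lower and 16 higher, against 10.6% and 10.4% of all probe sets. These shares are near those of the background. They include members that the limit on signal admitted through 1 light condition, whose direction of change it favoured. The mean of total RNA reached 8 in both light conditions for 129 members, in light alone for 7 and in the dark alone for 14. Of the 129, 19 were lower and 8 higher in total RNA, and 13 lower and 13 higher in polysomal RNA. Of the 7, 5 were called higher in total RNA, and of the 14, 4 were called lower. The same members were often called in both fractions, with 14 lower in both, 10 higher in both and 0 called in opposite directions, among 45 called in at least 1. With the replicate block 37 members were lower and 20 higher in total RNA, and 26 were lower in polysomal RNA. The shares given above come from the fit without the block, with all arrays. They are no background for the counts with the block or with arrays left out. The lower count in total RNA was 14 without replicate 2, 7 without replicate 3 and 15 without dark total array 3 alone. In polysomal RNA it was 8, 5, 10 without dark array 1 and 8 without light array 3. The median light change was -0.25 in total RNA and -0.20 in polysomal RNA, against -0.08 in the other eligible genes for each, but the polysomal median was 0.185 on the deposited scale and -0.05 without dark polysomal array 1.

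Members that met the limit in both light conditions and rose in light in both fractions included SWEET17, SMZ and SWEET2, described above, and AT1G29660, which changed by 1.92 in total RNA and 1.78 in polysomal RNA (limma adjusted p = 3.3e-06 and 9.4e-06). Among those that fell, AT5G16110 had the largest change in total RNA of the 150. Its level there was 3.12, 3.33 and 3.19 in light dcp5-1, against 5.31, 5.11 and 5.08 in dark dcp5-1. In polysomal RNA it was 2.60, 2.38 and 1.95 in light dcp5-1, against 3.28, 3.27 and 2.84 in dark dcp5-1. The groups did not overlap in either fraction, and the change was -1.96 ± 0.23 in total RNA (limma adjusted p = 1.1e-06) and -0.82 ± 0.23 in polysomal RNA (0.013). Its loading was -0.90 ± 0.23 in light dcp5-1 (0.012), -2.03 ± 0.23 in dark dcp5-1 (3.5e-05) and -0.72 ± 0.23 in light control (0.041). The light dcp5-1 call ended without polysomal array 3 (0.077), and the light control call without total array 1, 2 or 3 or polysomal array 2 or 3 (highest 0.13). SDRB rose by 0.80 ± 0.21 in total RNA (0.0070), a call that ended without light total array 2 (0.052), and its polysomal change of 0.38 did not pass.

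**Figure D5:**
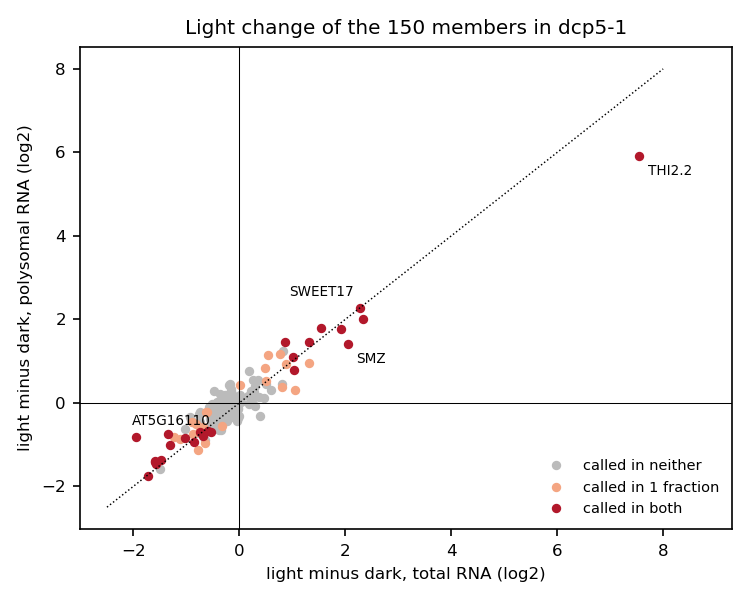
Light minus dark (log2) of the 150 members in dcp5-1, total RNA on the horizontal and polysomal RNA on the vertical axis; the dotted line marks equal change. THI2.2, admitted through its light arrays, lies at 7.55 and 5.91, and 24 members passed in both fractions, 14 lower and 10 higher.

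Between the genotypes in light, few members differed in amount. In total RNA 2 were lower in dcp5-1 and 3 higher (limma, adjusted p under 0.05), where all probe sets had 0.938% and 2.57%, and in polysomal RNA 3 were lower and 4 higher, where all probe sets had 1.48% and 2.79%. With the replicate block there were 8 lower and 5 higher in total RNA and 12 lower in polysomal RNA, for which the shares above, from the fit without the block, are no background. Leaving out single arrays or replicate numbers gave 0 to 3 lower and 0 to 4 higher in total RNA, and 0 to 5 lower and 1 to 6 higher in polysomal RNA. AT3G22620 had the largest increase in either fraction. Its level in polysomal RNA was 5.07, 5.12 and 5.94 in light dcp5-1, against 3.81, 3.44 and 3.53 in light control. In total RNA it was 5.56, 5.98 and 6.12 in light dcp5-1, against 4.26, 4.64 and 4.49 in light control. The genotypes did not overlap, and dcp5-1 was higher by 1.78 ± 0.24 in polysomal RNA (limma adjusted p = 8.1e-05) and by 1.42 ± 0.24 in total RNA (8.7e-04). AT5G66390, the class III peroxidase, was higher by 1.45 ± 0.26 in polysomal RNA (0.0015) and by 1.07 ± 0.26 in total RNA (0.019), the second of which ended without light total array 2 or 3 of dcp5-1 or array 1 of control (highest 0.10). AT1G35612 was lower by a log2 difference of -1.85 in total RNA (0.0051).

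The signal and position of the members were set beside those of all eligible genes. They made up 3.39% of eligible genes with a mean total-RNA signal of 8 to 9, 2.80% of those from 9 to 10 and 3.16% of those of 10 or more, on the deposited log2 scale. Chromosomes 1 to 5 held 34, 22, 28, 29 and 37 members, or 22.7%, 14.7%, 18.7%, 19.3% and 24.7%, where the eligible genes had 25.9%, 14.3%, 20.7%, 14.8% and 24.3%. There were 2 pairs of neighbouring members, the pairs of EXPB1 and of SWEET17 given above. None of the members lay at the lowest value of any array, which is a minimum and not a limit of detection. On polysomal arrays 18 to 45 of the members were below the array median, against 0 to 3 on total arrays. The other lists held 0 members. They were transcription factors with 19 eligible genes, ubiquitin and proteasome with 19, membrane trafficking with 14, photosynthesis with 10, transporters and channels with 8 and mitochondrial respiration with 7. Conserved upstream reading frame genes, heat shock and chaperone genes, and late embryogenesis and seed storage genes had 6 each, auxin genes 4, decapping and processing body genes 3, and light signalling and clock genes, splicing and RNA-binding genes and histones 2 each. The words for ribosomal proteins, translation factors, and kinases and phosphatases matched 0 eligible genes. The lists drawn by words match only symbols and synonyms, so genes such as SMZ, SWEET2 and ATU2AF65A were in none of them. Median loading in dark dcp5-1 was 0.048 for the transcription factors, 0.208 for ubiquitin and proteasome genes and -0.468 for the decapping and processing body genes.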

How the data were processed

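The authors deposited log2 signals, 1 column for each of 24 Affymetrix ATH1 arrays. GCOS 1.4 is named per the submitters' processing notes. The log base is inferred from the values, and how the arrays were scaled is not given in the sources used here. Probe sets were named through the platform's gene table (13513 with 1 gene, 503 with several, 8794 with none), of which 13436 matched RefSeq. Each array was centred on its median over non-control probe sets, and the 25% with the lowest mean were left out. All 150 members passed this filter. The means of all 8 groups entered 1 model in limma 3.58.1 (R 4.3.3; variance trend, Benjamini-Hochberg at 0.05 over 17059 probe sets, no replicate block). The fit was run on data simulated with independent noise for each array. Such data lack the pairing of replicate numbers described below, so that run does not show how the fit deals with it.

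Comparisons that use the 6 dark control arrays are given without a test. The members and lists were chosen with earlier results of these data known. The named-gene rule took the lowest and highest loadings in each condition, the largest called changes, list members and the genes at the limit. It took 49 members, some of them with a symbol. The other members with a symbol, AT3G52060 and AT2G20740 were added after their values were seen. Word lists matched symbols and synonyms only. Replicate numbers paired the samples: 36 of 36 correlations of residuals between same-numbered arrays of 2 groups, in 12 pairs of groups, were over 0.1 (0.15 to 0.61). The main fit left this pairing out, so its standard errors and calls do not use it. Within-group spread is that of biological replicates per the labels. Arrays were 3 per group, which limits the precision. Promoter and protein sequences were not analysed here.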

Additional observations from a re-analysis of the deposited data

Results flagged for a closer look

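Among the named members, AT2G01100 was singled out because its replicate pairs moved in opposite directions in the genotypes. Other probe sets were not screened in this way, so how often such a pattern arises among all genes is not known here. Its light change of polysome loading was -0.10, -0.69 and -0.23 in dcp5-1, against 0.44, 0.72 and 0.30 in control, and the means were -0.34 and 0.49. The dcp5-1 change minus the control change was -0.83 on the log2 scale. The difference was not tested, because the dark control arrays chose the gene for a low value.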

How the results depend on the processing

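Medians of loading kept their sign in light dcp5-1, dark dcp5-1 and light control under all alternatives run, which were other scalings, filters, fits and choices of members. On the deposited scale, where the array-wide shift remains, they were -1.89, -2.36 and -1.95, and 149 members were called lower in light dcp5-1. The shift acts on all probe sets, so that count is not read as a result about the members. Counts of called members in this section are given without the share of all probe sets under the same alternative. They show how the counts move and are not set against a background. The 75 lowest genes as members had 56, 64 and 62 called lower, with medians of -1.24 and -1.26 in light and dark dcp5-1, and the 300 lowest had 155, 193 and 169, with -0.77 and -0.87. A signal limit of 7 gave medians of -1.15 and -1.17 in light and dark dcp5-1, and a limit of 9 gave -0.80 in light dcp5-1. Leaving out arrays or replicate numbers gave 29 to 96, 28 to 112 and 6 to 118 members lower, 0 to 0, 0 to 1 and 0 to 0 higher, and medians of -1.02 to -0.89, -1.12 to -0.96 and -1.15 to -0.87. The light change of loading in dcp5-1 had a median of 0.44 on the deposited scale and 0.035 to 0.18 with arrays left out, with 0 to 0 called either way. The genotype difference of loading in light had a median of -0.13 to 0.20, with 0 to 0 called. For the light change in total RNA of dcp5-1, the replicate block, the compared groups alone and array weights each gave 37 lower, and the block 20 higher; arrays left out gave 7 to 22 lower, 9 to 14 higher and a median of -0.35 to -0.21. In polysomal RNA the deposited scale gave 4 lower and a median of 0.185, the reverse in sign, and the replicate block 26 lower; arrays left out gave 5 to 18 lower, 11 to 15 higher and a median of -0.22 to -0.053. For dcp5-1 against control in light total RNA, the lower count was 8 with the replicate block and with array weights, and 1 on the deposited scale, with no filter and with no variance trend. The higher count there was 5 with the block and 1 on the deposited scale. Arrays left out gave 0 to 3 lower, 0 to 4 higher and a median of -0.10 to -0.07. In polysomal RNA the lower count was 12 with the replicate block, 1 on the deposited scale, with no filter and with array weights, and 0 with the compared groups alone. The higher count was 1 on the deposited scale and 2 with the compared groups alone. Arrays left out gave 0 to 5 lower, 1 to 6 higher and a median of -0.20 to 0.08. The replicate block also called 1 member, THI2.2, higher in dark dcp5-1. Reversed in sign on the deposited scale were GPT in light dcp5-1 (-0.90) and AT1G10660 in light control (-0.87). Over the single genes and alternatives, 3357 values kept direction and side of the threshold, 489 lost a call, 121 gained one and 2 reversed. Other causes of these changes were not tested. With 3 arrays a group, small differences were not detectable.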
